A study of Homo sapiens with 36 samples.

Results

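HCT116 is an epithelial cell line from a human colorectal carcinoma that keeps a working p53 and grows with constitutively active Wnt and RAS signalling. Its RNA was profiled after 6 h in DMEM with 1400 µM copper(II) sulphate and, at the same time, after 6 h in DMEM without copper. Each group held 2 arrays, so 4 of the 36 arrays of the series enter the comparison, chosen by line, treatment and time alone. Nothing in the labels tells if both arrays of a group stem from separate cultures. The p-values therefore reflect the spread between arrays alone, which may be technical. Among the 5 copper times of this line, 2, 4, 6, 12 and 18 h, the one at 6 h is alone in having 2 copper and 2 untreated arrays. Further groups used below are HCT116 at 0 h without copper (2 arrays) and HCT116 at 2, 4, 12 and 18 h. At each of these copper times there were 2 copper arrays, also with 1400 µM, and 1 untreated array. The bronchial epithelial line BEAS-2B at 6 h was used as well (2 arrays without copper and 2 with 800 µM). Line and dose differ together between HCT116 and BEAS-2B and cannot be told apart.

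Copper is an essential cofactor that cells take up through SLC31A1, hand on by chaperones and export with ATP7A and ATP7B. In excess it binds thiols, displaces other metals from proteins and drives redox cycling. Cells answer metal overload through MTF1, which switches on the thiol-rich metallothioneins and the zinc exporter SLC30A1. Misfolded proteins free HSF1 to transcribe chaperone genes, NRF2 raises glutathione and antioxidant genes, and kinases acting on the initiation factor eIF2 raise ATF4 and its targets. Lipoylated mitochondrial enzymes and iron-sulphur proteins are known targets of copper toxicity.

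Signals are given on a log2 scale after background correction and quantile normalization. A level is one gene's signal on one array, an effect is the mean of the copper arrays minus the mean of the untreated arrays, ± is the standard error of that difference from the fit to all arrays, and an effect of 1 is a 2-fold difference. Copper arrays 1 and 2 and untreated arrays 1 and 2 are the labelled replicates. Probes detected above background made up 41.36% and 42.4% of all probes on untreated arrays 1 and 2, and 36.86% and 38.95% on copper arrays 1 and 2. The detected share was thus lower on both copper arrays than on both untreated ones. Of 13 epithelial and colon markers measured, 11 were detected on both untreated arrays, and their summed level was 14.51 to 14.56 untreated and 14.54 to 14.59 with copper. CDX1 was detected on none of the 4 arrays. Of 12 mesenchymal markers, 7 were detected on none and 0 passed the test. Leukocyte markers summed to 8.84 to 8.92 untreated and 9.7 to 9.74 with copper. Of 9 leukocyte markers measured, 3 passed the test as higher (33.3%) and 0 as lower, beside 12.4% and 18.5% of all genes. CD14 was at least 3.1-fold higher with copper. PTPRC, the defining leukocyte marker, was detected on none of the 4 arrays. The 3 basal airway markers measured summed to 8.4 to 8.44 untreated and 9.01 to 9.09 with copper. The part of these markers in the results was not tested.

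Copper changed the level of 4526 of 14678 genes tested (30.8%) at an adjusted p under 0.05, the threshold used throughout. Of these, 1814 rose (12.4%) and 2712 fell (18.5%). With each array scaled to one median in place of quantile normalization, 694 rose and 1874 fell. Past 2-fold, 626 genes rose (4.26%) and 1006 fell (6.85%). Past 4-fold, 141 genes rose and 140 fell, while past 8-fold 54 rose and 23 fell and past 16-fold 18 rose and 2 fell. Between 6 h and 0 h without copper, the same limma test called 0 genes. There, 1038 genes had an unadjusted p under 0.05 and the lowest adjusted p was 0.149. Among the genes that rose, 95 were detected on neither untreated array and on both copper arrays, and among those that fell, 249 showed the reverse.

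The genes that moved farthest were short. The median gene span was 26.0 kb over all genes tested, 28.1 kb over the genes that rose and 23.5 kb over those that fell. Past 4-fold it was 9.77 kb for the genes that rose and 11.1 kb for those that fell. Detection on both untreated arrays was more frequent among called genes: 98.6% of the genes that fell, 88.4% of those that rose and 70.5% of all tested were detected there. Genes undetected without copper can show only rises, so the share among the genes that fell is not a result about them.

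The 15 largest rises included chaperone genes, immediate early genes and genes of the integrated stress response, the program that follows phosphorylation of eIF2. They were HSPA1A, HSPA6, EID3, FOSB, CXCL8, FOS, EGR3, DDIT3, ARC, HMOX1, ATF3, PPP1R15A, DUSP2, HSPA7 and PIM1, with fitted effects from 4.36 to 6.96. HSPA1A, HSPA6 and EGR3 among them were undetected without copper, so that their fitted values are no bound. EID3, which encodes a subunit of the SMC5-SMC6 chromosome maintenance complex, had levels of 5.01 and 4.92 untreated and 10.69 and 10.75 with copper. Both copper arrays lay far above both untreated arrays, and the effect was 5.76 ± 0.17, adjusted p = 1.97e-14. PIM1, a serine/threonine kinase that favours cell survival, stood at 5.66 and 5.80 untreated and 10.14 and 10.03 with copper. Its effect of 4.36 ± 0.12 had an adjusted p of 1.95e-14.

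The 15 largest falls had few functions in common. They were HPS6, TMEM177, MARS2, RPUSD2, FJX1, FADD, PANK1, ANKRD46, CCDC71, TIGD5, FAM83D, ZNF627, KCTD14, HAS3 and IMP3, with effects from -5.14 to -3.27. HPS6, a subunit of the BLOC-2 complex that sorts cargo to lysosome-related organelles, had levels of 11.54 and 11.17 untreated and 6.32 and 6.11 with copper. The arrays of the groups were far apart, and the effect was -5.14 ± 0.18, adjusted p = 3.22e-13. TMEM177, a mitochondrial inner membrane protein that takes part in the assembly of the copper-bearing cytochrome oxidase subunit COX2, had levels of 9.47 and 9.41 untreated and 5.23 and 4.81 with copper. It fell by 4.42 on the log2 scale (adjusted p = 1.4e-10). MARS2, the mitochondrial methionyl-tRNA synthetase, stood at 9.26 and 9.17 untreated and 5.72 and 5.37 with copper, an effect of -3.67 ± 0.30, while its second probe gave -0.80. FADD, the adaptor that links death receptors to caspase-8, had levels of 9.55 and 9.52 untreated and 6.01 and 5.96 with copper and an effect of -3.54 ± 0.19, adjusted p = 1.4e-10. PANK1, which starts coenzyme A synthesis, had levels of 8.59 and 8.33 untreated and 5.44 and 4.46 with copper, where its copper arrays were nearly 1 log2 unit apart. HAS3, a hyaluronan synthase, had an effect of -3.27 ± 0.41 on the probe used and -1.82 on its other probe. CCDC71 was undetected on both copper arrays and at least 10.5-fold lower there. The plot shows the levels of these 30 genes by array. They were picked as the largest called differences of these same arrays, so the gap between their groups follows from the choice.

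**Figure D1:**
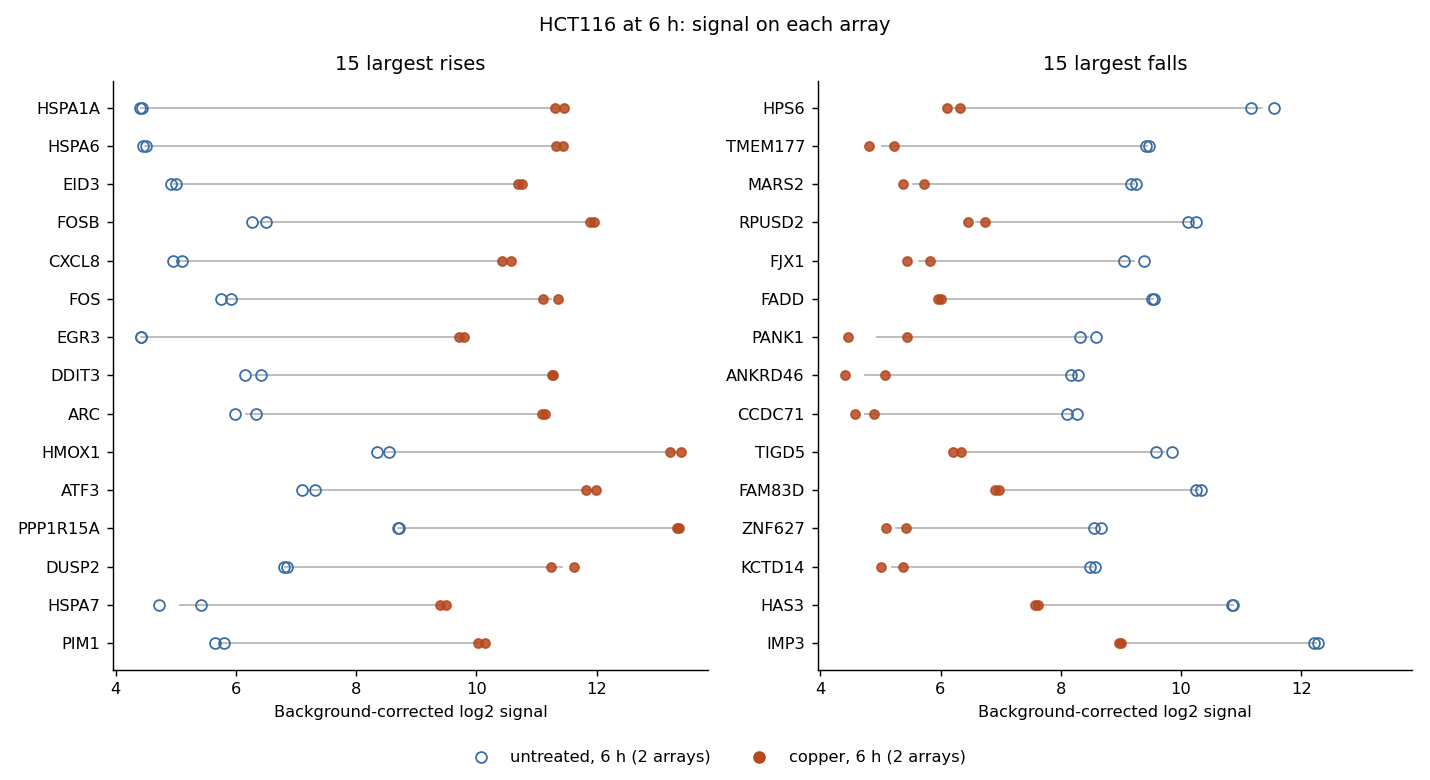
Log2 signal on each of the 4 arrays for 30 genes, the 15 that rose most and the 15 that fell most after 6 h of copper in HCT116. Open blue points are untreated arrays and filled orange points are copper arrays. The genes were picked by their difference on these arrays, so the gap between the groups follows from the choice.

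**Figure D2:**
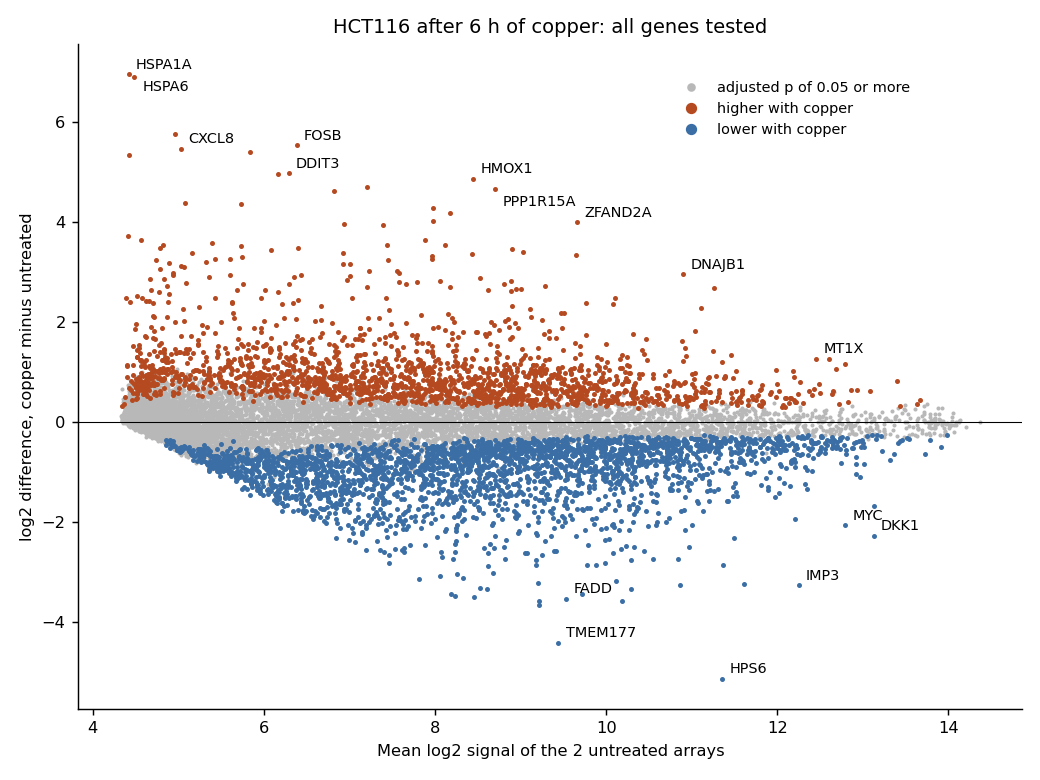
Mean log2 signal on the 2 untreated arrays (horizontal axis) against the effect of copper on the log2 scale (vertical axis) for the 14678 genes tested. Called genes are coloured, 1814 higher and 2712 lower, and named genes are labelled. The falls lie mostly to the right, where the untreated signal is well above background and a fall has room to show.

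Most cytosolic chaperone genes rose, the stress-inducible Hsp70 genes HSPA1A and HSPA6 by the largest amounts. Of 32 members measured, 22 rose (68.8%), 2 fell (6.25%) and 8 did not pass the test, beside 12.4% rising and 18.5% falling of all genes, the shares to read each later list by, with a median effect of 0.75, against -0.044 over all genes. The inducible Hsp70 genes HSPA1A and HSPA6 were undetected without copper, at 4.41 and 4.43 and at 4.50 and 4.46. With copper they stood at 11.30 and 11.45 and at 11.33 and 11.44, so that HSPA1A was at least 105-fold higher (adjusted p = 2.15e-15) and HSPA6 at least 105-fold higher (adjusted p = 4.66e-17). The bound of HSPA6 holds for the probe used, and its other probe gave a smaller effect, 5.29. HSPA7, annotated as a pseudogene and nearly identical to HSPA6, read 5.42 and 4.72 untreated and 9.40 and 9.49 with copper. Whether its probe reads HSPA6 transcripts was not tested. The Hsp40 co-chaperones DNAJB1 and DNAJB6, which hand clients to Hsp70, rose by 2.95 and 2.47 on the log2 scale. DNAJB1 had levels of 10.79 and 11.01 untreated and 13.84 and 13.86 with copper, with no overlap between groups. BAG3, the Hsp70 cochaperone that steers aggregated proteins to autophagy, had an effect of 2.27 ± 0.13, adjusted p = 2.97e-10. The Hsp110 gene HSPH1 had levels of 12.54 and 12.67 untreated and 13.79 and 13.94 with copper and an effect of 1.26 ± 0.095, adjusted p = 1.05e-08.

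Some chaperone genes were bright without copper, near the highest level of any gene on these arrays, 14.36. Whether this limited their rise was not tested. HSPA8, the constitutive Hsp70, had levels of 13.61 and 13.96 untreated and 13.96 and 13.93 with copper, and the groups overlapped (0.15 ± 0.12, adjusted p = 0.407). HSP90AA1 and HSP90AB1 had effects of 0.16 ± 0.13 and 0.0068 ± 0.13, which did not pass the test. HSPA1B, which encodes nearly the same protein as HSPA1A, was also bright without copper, at 13.42 and 13.38, and stood at 14.28 and 14.16 with it, an effect of 0.82 ± 0.11, adjusted p = 1.69e-05. CHORDC1, an HSP90 co-chaperone, had levels of 10.25 and 10.38 untreated and 11.97 and 12.18 with copper and an effect of 1.76 ± 0.13, adjusted p = 1.01e-08. HSPA8, HSP90AA1, HSP90AB1, HSPA1B and CHORDC1 were chosen after their values were seen. HSPA2 and CCT2 were the 2 members that fell. HSPA2 was undetected with copper and at least 1.45-fold lower, and CCT2 fell by 0.28 on the log2 scale. Neither fall held without copper array 2 or without untreated array 2, and only 1 of them held without either other array.

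Promoters of 4 chaperone genes are shown for the element that HSF1 binds. They run from 250 bases before to 50 bases after the start of the gene in RefSeq (GRCh38.p14), and capitals mark matches to GAANNTTC or TTCNNGAA, paired inverted repeats of the unit that HSF1 binds. Both motifs read the same on either strand, and neighbouring matches can share a repeat. HSPA1A (chr6:31815293-31815592, plus strand) and HSPA6 (chr1:161524290-161524589, plus strand) are the members with the largest rises. CHORDC1 (chr11:90223000-90223299, minus strand) holds the most matches, and HSPA8 (chr11:123062087-123062386, minus strand) holds 4 matches beside an effect that did not pass the test.
HSPA1A: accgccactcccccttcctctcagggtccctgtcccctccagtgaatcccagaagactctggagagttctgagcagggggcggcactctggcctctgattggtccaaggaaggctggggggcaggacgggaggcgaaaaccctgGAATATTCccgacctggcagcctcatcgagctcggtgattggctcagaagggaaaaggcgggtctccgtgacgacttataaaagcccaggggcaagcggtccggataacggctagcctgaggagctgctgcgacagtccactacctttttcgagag
HSPA6: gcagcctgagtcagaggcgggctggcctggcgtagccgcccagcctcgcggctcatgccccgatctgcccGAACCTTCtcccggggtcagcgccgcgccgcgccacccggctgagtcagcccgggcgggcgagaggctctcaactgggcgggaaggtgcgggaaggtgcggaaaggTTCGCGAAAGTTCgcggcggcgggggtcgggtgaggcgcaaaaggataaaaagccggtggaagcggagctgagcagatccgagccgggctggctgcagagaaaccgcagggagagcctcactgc
CHORDC1: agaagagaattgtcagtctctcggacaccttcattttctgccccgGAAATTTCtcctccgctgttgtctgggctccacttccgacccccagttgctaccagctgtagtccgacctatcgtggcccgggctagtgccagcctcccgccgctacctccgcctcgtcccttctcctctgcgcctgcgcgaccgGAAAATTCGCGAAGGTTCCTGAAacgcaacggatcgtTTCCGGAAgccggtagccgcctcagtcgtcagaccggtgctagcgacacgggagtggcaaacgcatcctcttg
HSPA8: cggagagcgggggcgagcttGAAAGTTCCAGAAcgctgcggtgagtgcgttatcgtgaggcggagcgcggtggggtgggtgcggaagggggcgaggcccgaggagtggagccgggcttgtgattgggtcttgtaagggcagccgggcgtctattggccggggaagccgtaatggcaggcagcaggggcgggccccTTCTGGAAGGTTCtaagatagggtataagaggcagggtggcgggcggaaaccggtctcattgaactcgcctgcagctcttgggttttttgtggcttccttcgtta
The HSPA1A window had 1 match, 106 bases before the start. The HSPA6 window had 3, at 180, 74 and 69 bases before it, of which the last pair overlaps. The CHORDC1 window had 6. A promoter was found for 27 of the 32 chaperone genes, and 12 of the 27 (44.4%) held a match. Of the 18 that rose and had a promoter, 10 (55.6%) held one. The share was 13.7% over all 27305 promoters and 10.4% over the 11508 tested genes with one. DNAJB1 and HSPH1 had no match in this window. Matches are a description of the letters and not of binding.

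Among the metal-handling genes, most metallothioneins and the zinc exporter SLC30A1 rose. Of 8 metallothionein genes measured, 5 rose and 0 fell, with a median effect of 0.81. MT1B had the largest effect of the 5. It stood at 4.93 and 4.70 untreated and 8.40 and 8.28 with copper, an effect of 3.53 ± 0.15, adjusted p = 3.72e-12. MT1G had levels of 8.74 and 8.76 untreated and 10.62 and 10.56 with copper and an effect of 1.84 ± 0.18, adjusted p = 2.5e-07. MT1X was already bright, at 12.48 and 12.43, and reached 13.70 and 13.73, an effect of 1.26 ± 0.13, adjusted p = 3.82e-07. MT1H had an effect of 1.10 ± 0.22 and MT1F one of 0.51 ± 0.11. MT2A, at 13.60 and 13.90 untreated and 14.08 and 14.13 with copper, did not pass the test (0.36 ± 0.14, adjusted p = 0.0625), although without untreated array 2 its effect was 0.51 with an adjusted p of 0.0329 and with the authors' deposited normalized values 0.35 with one of 0.0262. The call of MT1F was lost with arrays scaled to one median. The metallothionein genes are alike in sequence, and how far their probes share transcripts was not tested.

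SLC30A1, which exports zinc and is a target of MTF1, had levels of 8.46 and 8.59 untreated and 11.42 and 11.40 with copper. Its copper arrays were nearly 3 log2 units above the untreated ones (2.88 ± 0.13, adjusted p = 1.38e-11). Of 24 copper and zinc transport genes measured, 5 rose (20.8%) and 4 fell (16.7%), beside 12.4% and 18.5% of all genes, and 2 rose with arrays scaled to one median. The others that rose included the zinc importer SLC39A6 (1.08 ± 0.15) and the copper exporter ATP7A, which stood at 5.44 and 5.64 untreated and 6.35 and 6.29 with copper. Its effect was 0.78 ± 0.20, adjusted p = 0.00451. Without untreated array 1 it was 0.68 with an adjusted p of 0.0513, and the call was also lost with arrays scaled to one median. ATP7B, the copper importer SLC31A1 and the metal sensor MTF1 did not pass the test, with effects of 0.35 ± 0.20, 0.41 ± 0.20 and 0.33 ± 0.16. With all 8 untreated HCT116 arrays as reference, those of 12 and 18 h included, they did pass the limma test, at adjusted p of 0.0392, 0.014 and 0.0103. The other probe of ATP7B gave an effect of -0.42 against the untreated arrays of 6 h. SCO2 and SCO1, mitochondrial proteins that carry copper to cytochrome oxidase, both fell. SCO2 had levels of 10.21 and 9.77 untreated and 7.21 and 7.13 with copper and an effect of -2.82 ± 0.25, adjusted p = 7.33e-08, and SCO1 levels of 10.84 and 10.91 untreated and 9.64 and 9.70 with copper and an effect of -1.20 ± 0.10, adjusted p = 4.94e-08. Without copper array 2 or untreated array 1, 2 of the 4 falls held.

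Promoters of metallothionein genes and SLC30A1 are shown for the element that MTF1 binds. Capitals mark TGCACNC or TGCGCNC on either strand, and SLC30A1 and both metallothionein genes are members that rose. MT1X lies at chr16:56682220-56682519 and MT1B at chr16:56651636-56651935, both on the plus strand, and SLC30A1 at chr1:211579112-211579411 on the minus strand (GRCh38.p14).
MT1X: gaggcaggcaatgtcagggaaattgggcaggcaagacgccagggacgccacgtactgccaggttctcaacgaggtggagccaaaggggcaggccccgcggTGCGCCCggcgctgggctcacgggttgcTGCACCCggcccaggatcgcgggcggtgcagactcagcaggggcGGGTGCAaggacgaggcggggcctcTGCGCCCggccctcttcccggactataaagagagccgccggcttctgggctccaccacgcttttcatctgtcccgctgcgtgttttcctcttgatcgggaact
MT1B: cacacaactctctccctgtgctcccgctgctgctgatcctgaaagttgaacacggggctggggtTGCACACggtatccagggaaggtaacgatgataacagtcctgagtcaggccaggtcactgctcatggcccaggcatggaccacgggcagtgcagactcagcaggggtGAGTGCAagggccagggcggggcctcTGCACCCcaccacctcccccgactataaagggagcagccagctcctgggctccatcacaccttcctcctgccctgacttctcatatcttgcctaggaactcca
SLC30A1: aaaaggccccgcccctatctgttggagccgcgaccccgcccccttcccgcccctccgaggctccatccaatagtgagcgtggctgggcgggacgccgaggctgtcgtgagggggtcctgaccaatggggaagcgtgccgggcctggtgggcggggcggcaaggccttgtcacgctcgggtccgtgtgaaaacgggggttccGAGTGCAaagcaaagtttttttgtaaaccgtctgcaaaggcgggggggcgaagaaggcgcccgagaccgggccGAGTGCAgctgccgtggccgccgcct
The MT1X window held 4 matches, that of MT1B 3, and that of SLC30A1 2, one 49 bases before and one 24 bases after the start. The motif is common: 29.3% of all promoters of this length and 37.1% of those of tested genes held it. A promoter was found for 4 of the 8 metallothionein genes, too few for a share.

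Oxidative stress genes rose in part. Of 21 NRF2 and glutathione genes measured, 8 rose and 1 fell, with a median effect of 0.26, and 5 rose with arrays scaled to one median. HMOX1, which breaks down haem, led them, with levels of 8.34 and 8.55 untreated and 13.22 and 13.40 with copper and no overlap between groups. Its effect was 4.87 ± 0.15, adjusted p = 4.97e-14. SLC7A11, which imports cystine for glutathione synthesis, had levels of 4.79 and 5.08 untreated and 8.04 and 7.69 with copper and an effect of 2.93 ± 0.20, adjusted p = 2.61e-09. SRXN1, which repairs oxidised peroxiredoxins, had an effect of 1.82 ± 0.13, the glutathione synthesis subunit GCLM one of 1.11 ± 0.11 and ME1, a source of NADPH, one of 1.48 ± 0.15. NQO1, often used as a marker of NRF2, had an effect of -0.015 ± 0.14, adjusted p = 0.962, and was chosen after its value was seen. The member that fell, TALDO1, did so by 0.30 on the log2 scale, and that call was lost without copper array 1, copper array 2 or untreated array 2.

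Of 30 genes of the integrated stress response measured, 18 rose, 2 fell and 10 did not pass the test, with a median effect of 0.60, and 11 rose with arrays scaled to one median. DDIT3, which encodes the transcription factor CHOP, had levels of 6.16 and 6.42 untreated and 11.27 and 11.26 with copper, a gap of nearly 5 log2 units. Its effect was 4.98 ± 0.15, adjusted p = 3.11e-14. ATF3 had levels of 7.09 and 7.32 untreated and 11.82 and 11.98 with copper and an effect of 4.69 ± 0.12, adjusted p = 6.65e-15. PPP1R15A, the phosphatase subunit that reverses eIF2 phosphorylation, had levels of 8.70 and 8.71 untreated and 13.33 and 13.38 with copper, and its 2 arrays of each group nearly coincided (4.65 ± 0.11, adjusted p = 2.15e-15). TRIB3, a pseudokinase induced by CHOP, had an effect of 3.34 ± 0.094, adjusted p = 1.79e-14. The mTORC1 inhibitor DDIT4 had levels of 9.07 and 9.00 untreated and 12.48 and 12.38 with copper and an effect of 3.40 ± 0.15, adjusted p = 6.1e-12, and SESN2, another such inhibitor, was undetected without copper and at least 11.2-fold higher with it. The amino acid synthesis genes ASNS, PSAT1 and PHGDH, chosen after their values were seen, had effects of 0.19 ± 0.12, 0.20 ± 0.10 and 0.16 ± 0.11, none past the test. The 2 that fell were the tRNA synthetase genes NARS1 and AARS1. Both calls were lost without copper array 2 or untreated array 2, and 1 was lost without copper array 1.

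Genes of the endoplasmic reticulum unfolded protein response moved by smaller amounts. Of 19 measured, 11 rose and 3 fell, with a median effect of 0.36. DNAJB9, a luminal Hsp40, had levels of 7.72 and 8.13 untreated and 9.47 and 9.51 with copper and an effect of 1.57 ± 0.16, adjusted p = 4.34e-07. HYOU1, a luminal Hsp70 relative, had an effect of 1.17 ± 0.12. SDF2L1, also a target of this response, went the other way, at 11.30 and 11.48 untreated and 10.46 and 10.35 with copper, and fell by 0.99 on the log2 scale. HSPA5, the main luminal Hsp70, chosen after its value was seen, had an effect of 0.36 ± 0.11, adjusted p = 0.0208. Without copper array 1 or untreated array 2, 7 members rose, and with arrays scaled to one median, 2 rose. Of the 3 falls, 1 held without copper array 1 or untreated array 1.

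Immediate early genes, which respond to signalling without new protein synthesis, had the highest median effect of the lists with over 3 members. Of 23 measured, 20 rose, 1 fell and 2 did not pass the test, with a median effect of 2.77. The AP-1 subunit FOSB had levels of 6.26 and 6.50 untreated and 11.95 and 11.88 with copper, and FOS levels of 5.92 and 5.75 untreated and 11.10 and 11.36 with copper, with effects of 5.54 ± 0.15, adjusted p = 9.65e-15 and 5.39 ± 0.15, adjusted p = 1.79e-14. Copper levels of both were over 5 log2 units above untreated levels on all 4 arrays compared. JUN, their partner, had levels of 7.98 and 7.96 untreated and 11.89 and 12.10 with copper and an effect of 4.02 ± 0.13, adjusted p = 9.47e-14. The zinc finger factor EGR3 was undetected untreated, at 4.42 and 4.41, and stood at 9.71 and 9.79 with copper, at least 34-fold higher. EGR1 had levels of 8.83 and 8.97 untreated and 12.31 and 12.42 with copper and an effect of 3.46 ± 0.11, adjusted p = 9.48e-14. ARC, known from neurons as an activity-regulated gene, had levels of 6.34 and 5.98 untreated and 11.10 and 11.15 with copper, with both copper arrays near 11. MYC, the growth-promoting transcription factor and a Wnt target, was the member that fell: its levels were 12.78 and 12.81 untreated and 10.80 and 10.64 with copper, its effect was -2.08 ± 0.13, adjusted p = 9.69e-10, and its second probe gave -2.14. FOSL1 and NR4A3 were the members that did not pass.

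Of 12 MAP kinase phosphatase genes, feedback regulators of the same signals, 5 rose, 2 fell and 5 did not pass the test. DUSP1 had levels of 8.22 and 8.13 untreated and 12.37 and 12.35 with copper and an effect of 4.18 ± 0.10, adjusted p = 2.15e-15, and DUSP2 levels of 6.85 and 6.79 untreated and 11.24 and 11.62 with copper and an effect of 4.61 ± 0.18, adjusted p = 1.19e-12. DUSP5 and the ERK phosphatase DUSP6 had effects of 2.67 ± 0.12 and 1.09 ± 0.14. DUSP7, undetected with copper, was at least 1.76-fold lower, and DUSP3 fell by 0.58 on the log2 scale. One of these 2 falls held without any one of the 4 arrays, and DUSP3 did not pass with arrays scaled to one median. HBEGF, 1 of 2 EGF receptor ligands that rose among 5 measured, had levels of 8.15 and 8.08 untreated and 11.68 and 11.63 with copper and an effect of 3.54 ± 0.14, adjusted p = 2.83e-12. Of those 2 ligands, 1 rose without copper array 2 or untreated array 1. Of 10 KLF transcription factor genes, 5 rose, among them KLF10 (2.47 ± 0.21), KLF9 (1.70 ± 0.22) and KLF6 (1.35 ± 0.10). KLF4 had an effect of -0.60 ± 0.19, adjusted p = 0.0198, a call lost without copper array 1 (adjusted p = 0.131), untreated array 1 (0.117) or untreated array 2 (0.0511), and with arrays scaled to one median. All 3 stress-inducible GADD45 genes rose: GADD45B had levels of 7.38 and 7.39 untreated and 11.33 and 11.32 with copper, GADD45A had an effect of 2.65 ± 0.12, and GADD45G was undetected untreated and at least 7.16-fold higher. BTG1, an antiproliferative factor linked to mRNA deadenylation, had levels of 8.78 and 8.87 untreated and 10.81 and 10.86 with copper and an effect of 2.01 ± 0.12, adjusted p = 3.17e-10. It was 1 of 3 mRNA decay regulators that rose, while 4 of the 13 fell and 2 of those 4 held without untreated array 2.

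Inflammatory genes were split. Of 21 NF-kB and inflammatory genes measured, 6 rose and 2 fell, and 14 were detected on any of the 4 arrays. CXCL8, the neutrophil chemokine interleukin-8, had levels of 5.10 and 4.95 untreated and 10.57 and 10.42 with copper and an effect of 5.47 ± 0.17, adjusted p = 7.86e-14, with 3.34 on its second probe. PTGS2, the inducible cyclooxygenase, had levels of 4.87 and 5.01 untreated and 7.93 and 7.92 with copper and an effect of 2.98 ± 0.15, adjusted p = 5.25e-11, and the cytokine IL11 had an effect of 1.89 ± 0.17. The chemokine CXCL1 had levels of 4.45 and 5.48 on the untreated arrays, over 1 log2 unit apart, and 6.51 and 6.32 with copper. Its effect was 1.45 ± 0.33, adjusted p = 0.00203, and without untreated array 1 it was 0.94 with an adjusted p of 0.0629. NFKBIA, the inhibitor that NF-kB itself induces, fell from 9.88 and 9.64 to 7.87 and 7.31 (-2.17 ± 0.23, adjusted p = 9.69e-07). NFKB1 fell by 0.69 on the log2 scale, but not with arrays scaled to one median.

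The p53 targets showed no common direction, although HCT116 keeps p53. Of 22 measured, 7 rose (31.8%) and 5 fell (22.7%), the second share near the 18.5% of all genes. GADD45A, the cell cycle inhibitor CDKN1A and the death receptor gene TNFRSF10B rose, with effects of 2.65 ± 0.12, 1.62 ± 0.12 and 1.57 ± 0.13. CDKN1A had levels of 10.85 and 10.92 untreated and 12.44 and 12.58 with copper. MDM2, a p53 target that feeds back on p53, had levels of 5.09 and 4.53 untreated and 5.13 and 5.62 with copper, where the groups did not overlap but their nearest arrays almost met (0.56 ± 0.31, adjusted p = 0.199). SESN1 was undetected with copper and at least 2.68-fold lower, and AEN and XPC had effects of -0.97 ± 0.16 and -0.81 ± 0.15. Without copper array 2 or untreated array 1, 4 of these genes rose and 3 fell, and with arrays scaled to one median 3 rose.

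Among 20 genes of the BCL2 family, caspases and the death adaptor FADD, 5 rose (25%) and 4 fell (20%), beside 12.4% and 18.5% of all genes. The proapoptotic PMAIP1, which encodes NOXA, had levels of 9.36 and 9.31 untreated and 11.06 and 10.96 with copper and an effect of 1.67 ± 0.14, adjusted p = 4.27e-08. MCL1, the survival factor that NOXA binds, had an effect of 0.99 ± 0.12 on the probe used and 2.87 on its other probe. CASP9, the apoptosome caspase, had an effect of 1.88 ± 0.19 on one probe and -0.46 on the other. CASP2 fell by 0.77 on the log2 scale. Without copper array 1 or untreated array 2, 2 of the 4 falls held, and 3 rose with arrays scaled to one median. Of 21 autophagy genes, 8 rose and 2 fell, and with arrays scaled to one median 2 rose. Those with the smallest adjusted p encode ATG8 proteins of the autophagosome membrane: GABARAPL1 had levels of 6.93 and 7.07 untreated and 9.96 and 9.86 with copper (2.91 ± 0.11, adjusted p = 6.68e-13), and MAP1LC3B levels of 9.17 and 9.40 untreated and 11.91 and 12.08 with copper (2.71 ± 0.13, adjusted p = 3.27e-11). VPS18, a subunit of the tethers that fuse vesicles with lysosomes, was undetected with copper and at least 4.77-fold lower. Of the 2 falls, 1 held without copper array 1 or untreated array 1.

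Of 22 targets of the hypoxia factor HIF, 10 rose and 3 fell, with 6 rising without copper array 1 and 3 with arrays scaled to one median. VEGFA, the angiogenic growth factor, had levels of 6.03 and 5.97 untreated and 8.03 and 8.00 with copper and an effect of 2.02 ± 0.18, adjusted p = 1.13e-07, and the peptide hormone gene ADM had an effect of 1.22 ± 0.12. NDRG1 had an effect of 1.07 ± 0.14. The glucose transporter SLC2A1, chosen after its value was seen, fell by 0.66 on the log2 scale, and of the 3 falls 1 held without copper array 1 or untreated array 1. Of 21 cholesterol genes, 5 rose (23.8%) and 3 fell (14.3%), beside 12.4% and 18.5% of all genes. INSIG1, the sterol sensor partner that holds SREBP back, had levels of 9.85 and 9.53 untreated and 11.05 and 11.07 with copper and an effect of 1.36 ± 0.14, adjusted p = 7.35e-07. HSD17B7, MSMO1 and HMGCS1, enzymes of the pathway, had effects of 1.13 ± 0.16, 1.03 ± 0.15 and 0.97 ± 0.15. Without untreated array 2, 1 of the 3 falls held.

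Protein degradation genes moved at a few members. ZFAND2A, an arsenite-inducible protein that associates with the proteasome, had levels of 9.76 and 9.56 untreated and 13.57 and 13.75 with copper, about 4 log2 units higher with copper (4.00 ± 0.15, adjusted p = 8.19e-13). ZFAND5 had an effect of 1.04 ± 0.11, and UBQLN2, a shuttle for ubiquitinated proteins, fell by 0.80 on the log2 scale. They belong to a list of 8 measured genes in which 2 rose and 2 fell. Of 27 proteasome subunit genes, 6 rose and 2 fell, which is 22.2% and 7.41% of them beside 12.4% and 18.5% of all genes. PSMA2 had an effect of 0.65 ± 0.12 and PSMD2 one of 0.46 ± 0.11. With arrays scaled to one median, 0 of the 27 passed in either direction, and without copper array 2, 1 of the falls held.

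Genes of lipoylation and iron-sulphur assembly fell where they changed. Of 20 such genes, 7 fell (35%) and 0 rose, with a median effect of -0.26, and 4 fell with arrays scaled to one median. CIAO1, of the cytosolic iron-sulphur machinery, had levels of 10.42 and 10.19 untreated and 9.31 and 9.25 with copper and an effect of -1.02 ± 0.16, adjusted p = 7.84e-05. ISCA2 and GLRX5, which handle iron-sulphur clusters in mitochondria, had effects of -0.82 ± 0.13 and -0.64 ± 0.11. DLAT, a lipoylated subunit of pyruvate dehydrogenase, had levels of 9.20 and 9.34 untreated and 8.38 and 8.72 with copper and an effect of -0.72 ± 0.17, adjusted p = 0.003, and without copper array 1 its adjusted p was 0.058. GLRX5, DLAT and LONP1, described next, did not pass with arrays scaled to one median. FDX1, a ferredoxin that reduces copper carried by ionophores and is needed for lipoylation, had levels of 5.50 and 5.70 untreated and 5.90 and 5.12 with copper. Its copper arrays lay on either side of the untreated ones (-0.087 ± 0.28, adjusted p = 0.876). LIAS, the lipoyl synthase, had an effect of -0.26 ± 0.19, adjusted p = 0.358. Of 10 mitochondrial chaperone and protease genes, 2 fell (20%, near the 18.5% of all genes) and 0 rose: DNAJA3, a mitochondrial Hsp40, had an effect of -0.80 ± 0.11, adjusted p = 1.13e-05, and LONP1 one of -0.30 ± 0.11, adjusted p = 0.0454. One of the 2 falls held without copper array 2, untreated array 1 or untreated array 2. HSPD1 and HSPE1, the mitochondrial Hsp60 and Hsp10 chosen after their values were seen, had effects of -0.025 ± 0.11 and 0.37 ± 0.19, which did not pass the test.

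Proliferation genes fell broadly at 6 h. The arrays measure RNA of the whole culture, so fewer cells in a phase of the cycle and less RNA per cell cannot be told apart. Of 30 mitosis genes, 25 fell and 0 rose, with a median effect of -0.84, beside 18.5% of all genes falling. CCNA2, the cyclin of S phase and mitotic entry, had levels of 10.83 and 10.92 untreated and 8.94 and 9.25 with copper and an effect of -1.78 ± 0.14, adjusted p = 2.38e-08. The mitotic kinase AURKA had levels of 10.85 and 10.98 untreated and 9.16 and 9.15 with copper and an effect of -1.76 ± 0.14, adjusted p = 3.02e-08. CDK1 and cyclin B1, CCNB1, had effects of -1.28 ± 0.11 and -0.96 ± 0.14. Of 34 DNA replication genes, 22 fell and 0 rose, with a median effect of -0.68. MCM10, which helps to activate the replicative helicase, had levels of 10.45 and 10.43 untreated and 7.85 and 7.86 with copper, with the arrays of a group nearly equal (-2.59 ± 0.15, adjusted p = 2.47e-10). The flap nuclease FEN1 had levels of 12.26 and 12.15 untreated and 10.21 and 10.30 with copper and an effect of -1.95 ± 0.10, adjusted p = 4.13e-11, and the sliding clamp PCNA an effect of -1.42 ± 0.11.

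Regulators of the entry into S phase mostly fell. Of 24 measured, 16 fell and 3 rose, with a median effect of -0.77. FBXO5, the inhibitor of the anaphase-promoting complex, had levels of 10.83 and 10.86 untreated and 8.03 and 8.15 with copper and an effect of -2.75 ± 0.19, adjusted p = 2.59e-09, with -1.67 on its other probe. CDC25A, the phosphatase that activates CDK2, had levels of 9.65 and 9.92 untreated and 7.20 and 7.45 with copper and an effect of -2.46 ± 0.16, adjusted p = 1.22e-09. SKP2, the ubiquitin ligase subunit that removes the inhibitor p27, had an effect of -2.17 ± 0.14, and the transcription factor E2F2 one of -2.01 ± 0.16. CDKN1B, which encodes p27 and was chosen after its value was seen, had levels of 7.65 and 7.45 untreated and 5.35 and 5.62 with copper and an effect of -2.06 ± 0.19, adjusted p = 1.7e-07. CDKN1A, CDKN1C and CDKN2D, inhibitors of cyclin-dependent kinases, were the members that rose, and 1 of the 3 rose with arrays scaled to one median.

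Ribosome biogenesis genes fell in the majority. Of 30 measured, 18 fell and 1 rose, with a median effect of -0.43. Without copper array 1, 11 fell, and with arrays scaled to one median, 9. The rise, of TAF1D, a factor of ribosomal RNA transcription, was lost without either copper array or untreated array 1. IMP3, a component of the U3 particle that processes ribosomal RNA, had levels of 12.22 and 12.28 untreated and 8.98 and 9.00 with copper, with arrays of each group within 0.1 of each other (-3.27 ± 0.13, adjusted p = 1.86e-12). RRS1, a ribosome assembly factor, had levels of 10.53 and 10.87 untreated and 8.78 and 8.61 with copper and fell by 2.0 on the log2 scale (adjusted p = 5.62e-08). POLR1C, a subunit of RNA polymerases I and III, had an effect of -1.42 ± 0.13. Of 17 splicing regulators, 5 rose and 7 fell. Only 3 or 4 fell without any one of the 4 arrays, and 1 rose and 1 fell with arrays scaled to one median. CLK1, a kinase of SR splicing proteins, had levels of 8.80 and 9.09 untreated and 11.47 and 11.72 with copper and an effect of 2.66 ± 0.15, adjusted p = 2.47e-10. Its relative CLK4 went from 6.78 and 6.68 untreated to 4.78 and 5.81 with copper, where the copper arrays were over 1 log2 unit apart (-1.43 ± 0.30, adjusted p = 0.001), and its effect without copper array 1 was -0.91 with an adjusted p of 0.0349.

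Targets of YAP and serum response factor rose at a few members. Of 23 genes, 6 rose and 0 fell, with a median effect of 0.18, or 0.16 with undetected members at their bound. CCN2, a secreted matricellular protein, had levels of 6.90 and 6.98 untreated and 10.99 and 10.81 with copper and an effect of 3.96 ± 0.14, adjusted p = 4.32e-13. CCN1, its relative, had levels of 8.36 and 8.51 untreated and 11.98 and 11.62 with copper and an effect of 3.36 ± 0.14, adjusted p = 2.89e-12. TAGLN, an actin-binding protein of smooth muscle, had levels of 7.45 and 7.42 untreated and 11.17 and 10.80 with copper and an effect of 3.54 ± 0.12, adjusted p = 1.33e-13 on the probe used, while one of its other probes gave 0.10. ANKRD1, a YAP target, had untreated levels of 5.33 and 4.46, one detected and one not, and copper levels of 7.39 and 7.51 (2.55 ± 0.36, adjusted p = 2.33e-05). The actin genes ACTB and ACTG1, chosen after their values were seen, had effects of 0.27 ± 0.15 and 0.022 ± 0.14, which did not pass the test.

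Genes downstream of Wnt, BMP and Notch signalling were lower where they changed, with 2 exceptions. Of 21 Wnt genes, 9 fell and 0 rose, with a median effect of -0.67, or -0.53 with undetected members at their bound. DKK1, a secreted Wnt antagonist, had levels of 13.06 and 13.20 untreated and 10.87 and 10.83 with copper and an effect of -2.28 ± 0.14, adjusted p = 6.92e-10. AXIN2, a feedback target of beta-catenin, had levels of 8.54 and 8.34 untreated and 6.76 and 7.17 with copper and an effect of -1.48 ± 0.20, adjusted p = 1.08e-05. RNF43, which removes Frizzled receptors, had an effect of -1.48 ± 0.18, and the Frizzled receptor FZD4 one of -1.43 ± 0.19. CTNNB1 itself, chosen after its value was seen, had an effect of 0.34 ± 0.19, adjusted p = 0.207. Of 15 ID, HES and Notch genes, 6 fell and 2 rose. ID1, an inhibitor of differentiation induced by BMP signals, had levels of 11.49 and 11.49 untreated and 9.18 and 9.14 with copper and an effect of -2.33 ± 0.10, adjusted p = 6.87e-12, with -0.48 on its other probe. ID2 had levels of 11.17 and 11.26 untreated and 9.71 and 10.00 with copper and an effect of -1.37 ± 0.16, adjusted p = 2.5e-06. ID3 had an effect of -0.98 ± 0.30, adjusted p = 0.0173, and that call was lost without any one of the 4 arrays, at adjusted p from 0.0598 to 0.0798. JAG2, a Notch ligand, had an effect of -2.15 ± 0.17. HEY1, a Notch target, rose from 4.98 and 5.12 to 7.23 and 7.37, while its other probe gave -0.63. HES1 was the other member that rose, and 1 of the 2 rises held without copper array 2 or either untreated array.

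Epithelial and colon genes moved in both directions. CDX2, the intestinal transcription factor, fell from 7.52 and 7.69 to 5.82 and 5.41 (-1.99 ± 0.15, adjusted p = 9.03e-09). ELF3, an epithelial ETS factor, had levels of 6.66 and 7.08 untreated and 8.26 and 8.28 with copper and an effect of 1.40 ± 0.20, adjusted p = 2.04e-05, and the keratin KRT18 had an effect of 1.21 ± 0.21. E-cadherin, CDH1, had an effect of 0.77 ± 0.12, a call lost with arrays scaled to one median. Of 13 such markers, 5 rose and 1 fell, 3 rose without untreated array 2, and 2 rose with arrays scaled to one median.

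**Figure D3:**
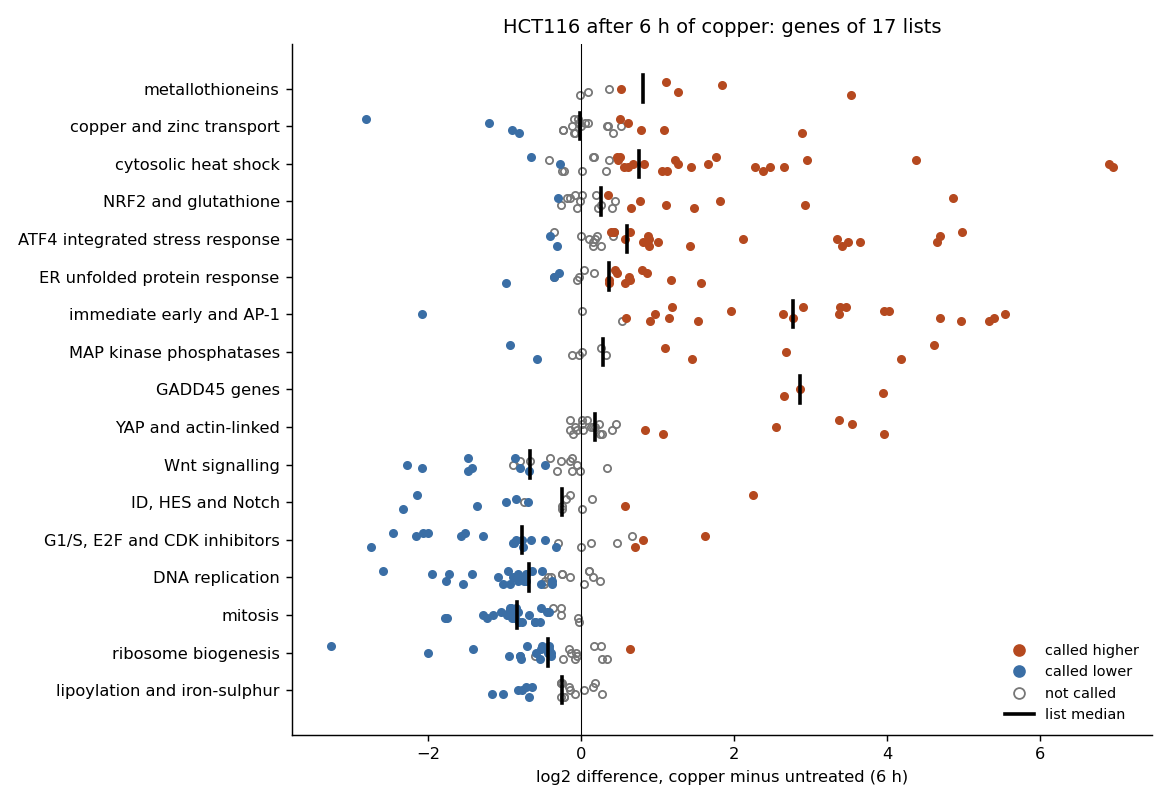
Effect of 6 h of copper in HCT116 (log2 copper minus untreated, horizontal axis) for the measured members of 17 gene lists. Each point is a gene and each black bar the median of its list; immediate early genes have a median of 2.77 and mitosis genes the lowest of those shown, -0.84.

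The effect of copper at 6 h was next set against that in BEAS-2B at the same time, which asks where the lines or their doses differ. In BEAS-2B, 1969 genes rose (13.4%) and 2597 fell (17.7%). The lines had 1019 risers in common, which is 56.2% of those of HCT116 and 51.8% of those of BEAS-2B, and 1531 genes that fell in both, 56.5% and 59%. The difference of the 2 effects passed the test for 1712 genes (11.7%). The difference, taken as HCT116 minus BEAS-2B, was higher in HCT116 for 687 (4.68%) and lower for 1025 (6.98%), and 86 and 411 with arrays scaled to one median. In 42 genes HCT116 rose and BEAS-2B fell, and in 111 the reverse held.

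Among genes detected on at least 1 array of every group, the 6 largest differences toward HCT116 were those of ANKRD1, CCN2, HOXC6, TAGLN, SNORA27 and RNU4ATAC. ANKRD1 had an effect of 2.55 ± 0.36 in HCT116 and -2.26 ± 0.36 in BEAS-2B, where its levels were 9.66 and 9.17 untreated and 7.54 and 6.77 with copper. The difference was 4.81 ± 0.51 (adjusted p = 4.84e-06). CCN2 and TAGLN were already near the highest level of any gene in BEAS-2B, 14.31 to 14.36 on its arrays of 6 h, so that a rise there had little room to show. CCN2 stood at 13.86 and 13.86 untreated and 14.13 and 14.21 with copper in BEAS-2B, an effect of 0.31 ± 0.14 beside 3.96 ± 0.14 in HCT116. TAGLN stood at 13.91 and 13.94 untreated and 13.89 and 13.99 with copper there, an effect of 0.014 ± 0.12. Their fitted differences of 3.65 ± 0.20 and 3.53 ± 0.17 are therefore not read as a stronger response of HCT116. The other probes of TAGLN in HCT116 reached down to 0.10. HOXC6, a homeobox gene, had effects of 1.83 ± 0.15 and -1.74 ± 0.15 in HCT116 and BEAS-2B, with probes in HCT116 from -0.057 to 1.83. SNORA27, which guides modification of ribosomal RNA, and RNU4ATAC, the U4atac RNA of the minor spliceosome, had effects of 3.57 ± 0.25 and 3.10 ± 0.26 in HCT116 beside 0.13 ± 0.25 and 0.16 ± 0.26 in BEAS-2B. JUN and EGR1 also had larger fitted effects in HCT116, by 2.81 ± 0.18 (adjusted p = 1.36e-08) and 2.14 ± 0.16 (adjusted p = 5.99e-08). In BEAS-2B, JUN stood at 11.15 and 10.96 untreated and 12.19 and 12.35 with copper. A rise of JUN had less room to show there, so its difference is not read as a stronger response of HCT116. EGR1 stood at 8.93 and 8.74 untreated and 10.16 and 10.15 with copper in BEAS-2B. PTGS2, which rose in HCT116, was detected on none of the 4 BEAS-2B arrays of 6 h.

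SOX4, a transcription factor of progenitor cells, had the largest of these differences toward BEAS-2B. It had levels of 9.39 and 8.98 untreated and 7.17 and 6.75 with copper in HCT116, an effect of -2.22 ± 0.17, while in BEAS-2B it had levels of 7.56 and 7.24 untreated and 9.39 and 9.59 with copper, an effect of 2.09 ± 0.17. The difference was -4.31 ± 0.24 (adjusted p = 1.98e-09). BCOR, a transcriptional corepressor, had effects of -2.19 ± 0.14 and 1.99 ± 0.14, a difference of -4.17 ± 0.20, although its second probe gave -0.044 in HCT116. TRIB1, a pseudokinase that scaffolds ubiquitin ligases, had 0.63 ± 0.14 and 4.73 ± 0.14. It stood at 12.97 and 12.90 untreated and 13.56 and 13.58 with copper in HCT116. In BEAS-2B it stood at 7.73 and 7.89 untreated and 12.51 and 12.57 with copper. With 14.36 the highest level of any gene, a rise in HCT116 had little room to show, so its difference is not read as a weaker response of HCT116. KLF4 had effects of -0.60 ± 0.19 and 3.03 ± 0.19. SMAD7, an inhibitor of TGF-beta signalling, had -0.15 ± 0.26 in HCT116, not past the test, and 3.28 ± 0.26 in BEAS-2B, with a difference of -3.43 ± 0.36 (adjusted p = 4.84e-06). MYC fell in HCT116 and had an effect of 0.56 ± 0.13 in BEAS-2B, a difference of -2.63 ± 0.18 (adjusted p = 3.11e-08). ID1, ID2 and AXIN2 also fell in HCT116 with differences of -3.15 ± 0.14, -2.76 ± 0.22 and -3.28 ± 0.28.

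Stress genes shared by the lines differed in size. HMOX1 had a fitted effect of 7.15 ± 0.15 in BEAS-2B, larger than in HCT116, with a difference of -2.29 ± 0.21 (adjusted p = 1.02e-06). It stood at 8.34 and 8.55 untreated and 13.22 and 13.40 with copper in HCT116. In BEAS-2B it stood at 6.54 and 6.85 untreated and 13.94 and 13.75 with copper. HMOX1 had less room for a rise in HCT116, so its difference is not read as a stronger response of BEAS-2B. HSPA7 had an effect of 7.86 ± 0.20 in BEAS-2B, a difference of -3.49 ± 0.28. The HSPA1A probe, undetected in untreated HCT116, read 10.69 and 10.57 in untreated BEAS-2B and 13.73 and 13.90 with copper. DDIT3 rose more in HCT116, by 1.67 ± 0.21 (adjusted p = 3.2e-05). MT1X had a difference of -1.63 ± 0.18. It stood at 12.48 and 12.43 untreated and 13.70 and 13.73 with copper in HCT116. In BEAS-2B it stood at 10.78 and 10.44 untreated and 13.56 and 13.45 with copper. With 14.36 the highest level of any gene, a rise in HCT116 had less room to show, so this difference is not read as a stronger response of BEAS-2B. MT1B was detected on none of the 4 BEAS-2B arrays of 6 h. FOSB and ATF3 had differences of -0.32 ± 0.21 and -0.44 ± 0.17, which did not pass the test.

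**Figure D4:**
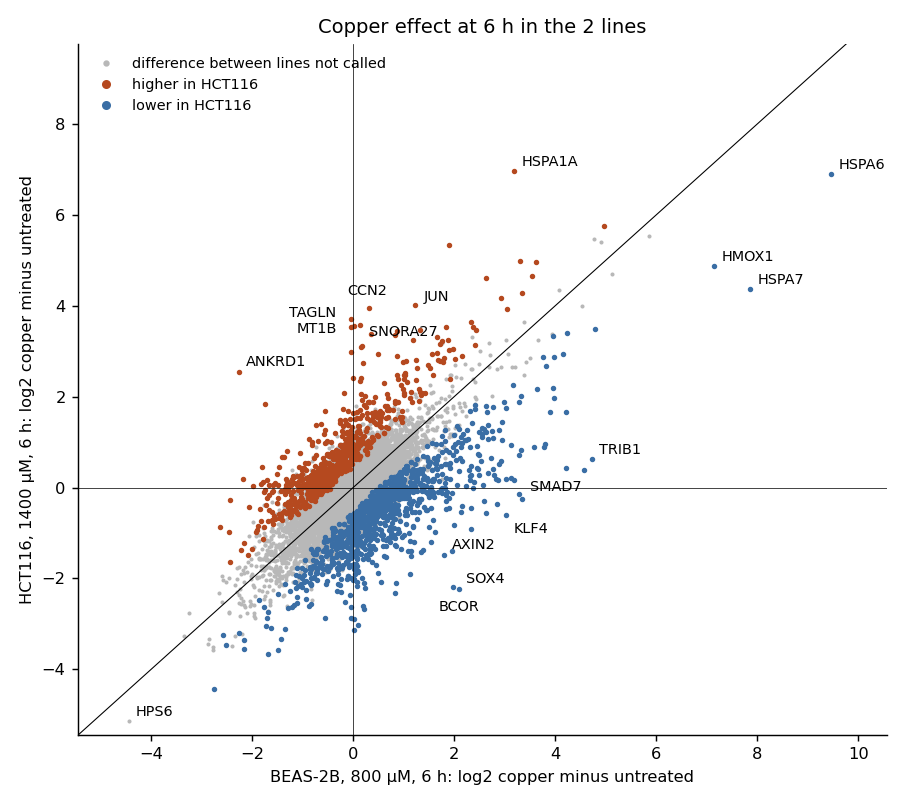
Effect of 6 h of copper in BEAS-2B (horizontal axis, log2 copper minus untreated) against that in HCT116 (vertical axis) for the 14678 genes tested. Coloured points passed the test of the difference between the lines, 687 higher and 1025 lower in HCT116, and named genes are labelled.

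The position of 6 h in the time course was read from the change of the effect between 4 and 6 h and between 6 and 12 h. The number of genes that rose was 115 at 2 h, 685 at 4 h, 1814 at 6 h, 1831 at 12 h and 2259 at 18 h, and the number that fell was 20, 797, 2712, 3294 and 3912. At every time but 6 h the single untreated array lowers the precision, so these counts are not on equal footing. The change from 4 to 6 h passed the test for 113 genes (0.77%), 31 higher (0.211%) and 82 lower (0.559%). These counts moved with each array: without untreated array 1 of 6 h they were 14 and 27, without untreated array 2 of 6 h 14 and 23, without copper array 1 of 6 h 24 and 40, without copper array 2 of 6 h 26 and 52, without copper array 1 of 4 h 24 and 36, and without copper array 2 of 4 h 21 and 61. With arrays scaled to one median, or with the compared arrays alone, both counts were 0, so the values that follow hold for the fit to all arrays after quantile normalization.

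Genes higher at 6 h than at 4 h included PIM1, which was lower again at 12 h, with copper levels of 8.81 and 8.83. Its copper levels were 8.73 and 8.47 at 4 h and 10.14 and 10.03 at 6 h. The change of its effect was 1.60 ± 0.20 (adjusted p = 0.000924). TOR1AIP2, which regulates the ATPase torsin, had copper levels of 8.08 and 7.80 at 4 h and 9.37 and 9.37 at 6 h, a change of 1.62 ± 0.27 (adjusted p = 0.00773). HSPA7 had copper levels of 8.00 and 7.85 at 4 h and 9.40 and 9.49 at 6 h (1.96 ± 0.31). Among genes lower at 6 h than at 4 h was TAF5, a subunit of the TFIID transcription complex, with copper levels of 6.45 and 6.38 at 12 h. Its copper levels were 7.33 and 7.16 at 4 h and 5.96 and 6.01 at 6 h. Its change was -1.78 ± 0.19 (adjusted p = 0.000272). Of the 12 genes with the largest changes among those detected on at least 1 array of every group, 6 in each direction, these 4 kept their call without any one of the 6 arrays of the comparison that could be left out.

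Between 6 and 12 h the effect changed for 1400 genes (9.54%), becoming higher for 493 (3.36%) and lower for 907 (6.18%). This change rests on 1 untreated array at 12 h, which was over 2-fold higher than the mean of the untreated arrays of 6 h in 153 genes and over 2-fold lower in 120, so the levels of both arms are given. DLL1, a Notch ligand, was at 5.96 and 6.32 untreated and 5.38 and 6.40 with copper at 6 h and did not pass the test then. At 12 h it stood at 6.39 untreated and 9.77 and 10.05 with copper, so the copper arm rose while the untreated array stayed within 0.5 of those of 6 h. NRARP, a Notch target and feedback inhibitor, showed the same course, with copper levels of 4.55 and 4.85 at 6 h and 8.47 and 8.36 at 12 h. Its untreated levels were 4.83 and 4.94 at 6 h and 5.26 at 12 h.

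In further genes the untreated array of 12 h stood apart from those of 6 h. ID2 had copper levels of 9.71 and 10.00 at 6 h and 11.48 and 11.62 at 12 h, while its untreated levels were 11.17 and 11.26 and 9.58, so that both arms moved, in opposite directions. The metallothionein MT1H likewise had copper levels of 7.93 and 8.00 at 6 h and 9.83 and 10.03 at 12 h, and untreated levels of 6.86 and 6.86 and 5.60. THBS1, the matrix protein thrombospondin, had copper levels of 11.68 and 11.44 at 6 h and 11.70 and 11.52 at 12 h, nearly unchanged in value. Its untreated levels were 8.73 and 8.88 at 6 h and 5.53 at 12 h, and its effect was 2.75 and 6.08. DDIT4 had copper levels of 12.48 and 12.38 at 6 h and 11.27 and 11.74 at 12 h, while its untreated levels were 9.07 and 9.00 at 6 h, 12.90 at 12 h and 12.85 at 18 h. Its effect went from 3.40 to -1.39 (change -4.79 ± 0.23, adjusted p = 1.7e-09). GDF15, a stress-induced cytokine, likewise had untreated levels of 7.78 and 7.98 at 6 h and 11.32 at 12 h, and copper levels of 11.59 and 11.46 and 9.86 and 10.52. DDIT3 had nearly the same copper levels at both times, 11.27 and 11.26 at 6 h and 11.25 and 11.27 at 12 h, while its untreated levels were 6.16 and 6.42 at 6 h and 9.67 at 12 h. BHLHE40, a circadian and hypoxia-linked repressor, fell in the copper arm itself, from 11.69 and 11.68 to 9.05 and 9.40, and its untreated levels were 9.40 and 9.60 at 6 h and 10.94 at 12 h. ELF3 and ANGPTL4 were higher on the untreated array of 12 h, at 9.10 and 9.65, than on those of 6 h, at 6.66 and 7.08 for ELF3 and 7.55 and 7.35 for ANGPTL4, and their copper levels at 12 h were 6.89 and 7.03 and 5.75 and 6.73.

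**Figure D5:**
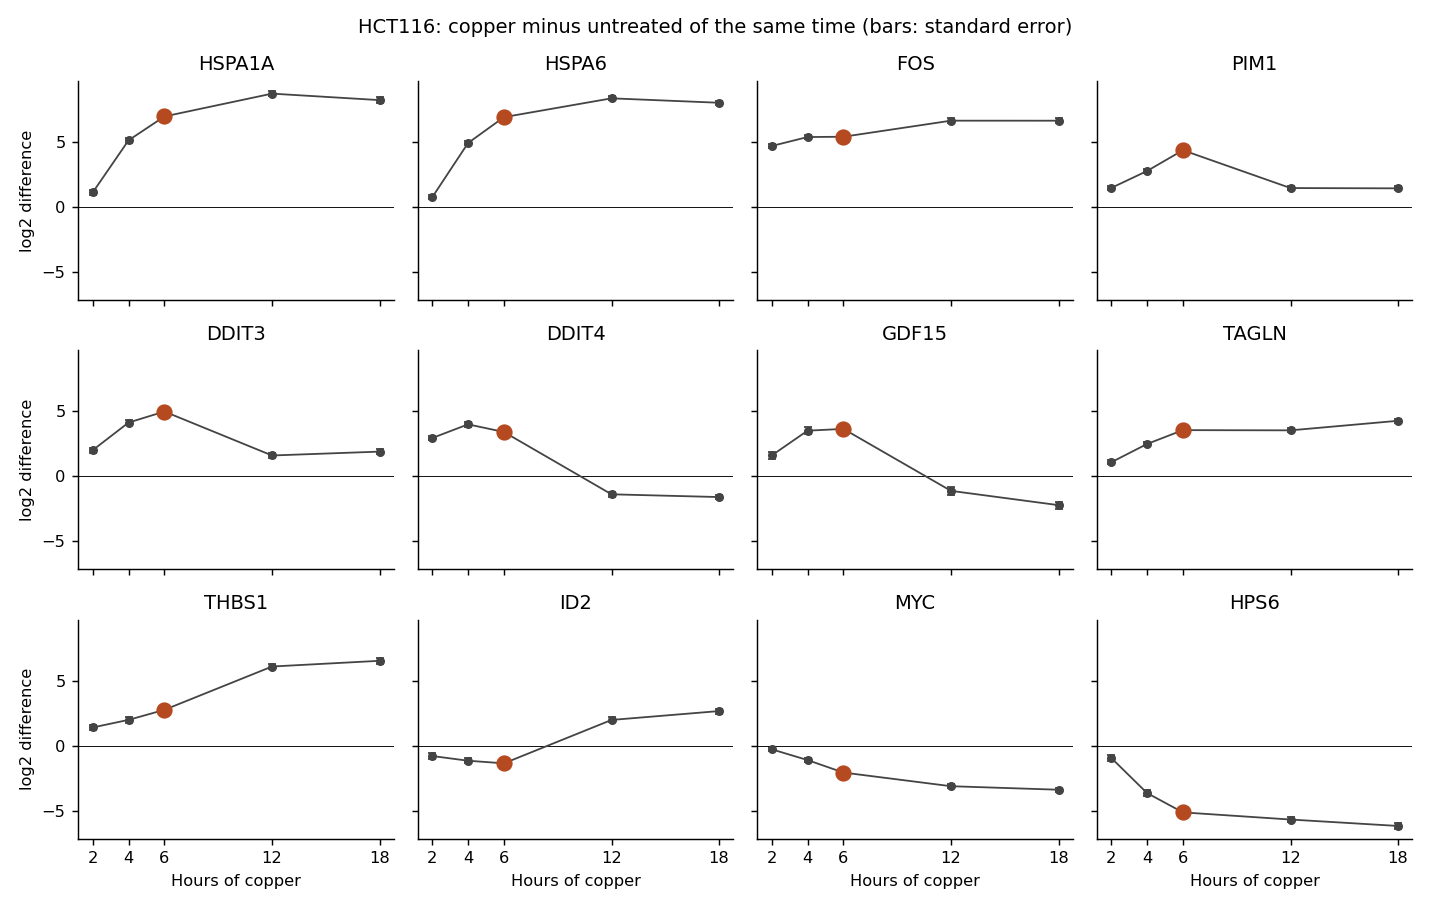
Effect of copper in HCT116 (log2 copper minus untreated of the same time, vertical axis) at 2, 4, 6, 12 and 18 h for 12 genes, with bars for the standard error and 6 h marked. HSPA1A and HSPA6, undetected without copper at 6 h, have higher fitted effects at 12 h than at 6 h, while DDIT3, DDIT4 and GDF15 are lower at 12 h, where their untreated levels are higher.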

How the data were processed

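RNA of 36 samples was hybridised, as biotin-labelled cRNA, to 1-colour Illumina bead arrays, and BeadStudio was used, per the submitters' processing notes. The labels give no slide or scan batch. The authors deposited non-normalized log2 signals of 43960 probes with detection p-values, and a table of quantile-normalized log2 values, from which quantile normalization of the deposited log2 signals differed by at most 0.2.

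The log2 signals were turned to intensities, background-corrected on the detection p-values and quantile-normalized with neqc (offset 16) in limma 3.58.1 under R 4.3.3. Probes with a detection p under 0.01 on at least 2 of the 36 arrays were tested. Of all probes, 29506 had 1 gene symbol, 14441 had none and 0 had several in the platform annotation, and 13 had missing values. The brightest tested probe stood for a gene, which gave 14678 genes, and 1542 of 4018 genes with more than 1 probe had probes of opposite sign. One limma fit with a mean for each of the 22 groups gave all contrasts, with Benjamini-Hochberg adjustment over all genes. Where a group was detected on neither array, the fold is a bound, the bright group's mean against, per array, the higher of the lowest detected signal and the probe's own. In a test on simulated data of the 6 h comparison over 14678 genes, 66% of 100 genes changed by 1 log2 unit and 100% of 100 changed by 2 were recovered, and 6 unchanged genes were called. The number of arrays limits the precision, with a median standard error of 0.204.

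Genes were named by rule: the 15 largest rises and falls at 6 h, the 6 largest changes each way of the other contrasts, up to 6 called members of each of 30 gene lists with the smallest adjusted p, and a set of copper and stress genes. The report names a part of these, and members that complete a count were named after their values were seen. The gene lists, the markers and the comparisons were chosen with earlier results of these data known. Replicate numbers did not pair the arrays: deviations of same-numbered copper and untreated arrays from their group means correlated at 0.0166. Alternatives to the background correction, normalization, offset, filter, probe rule, arrays in the fit and reference arrays were tried, and each array was left out in turn.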

Additional observations from a re-analysis of the deposited data

Results flagged for a closer look

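The effect of copper at 6 h differed between HCT116 and BEAS-2B by the test of the difference itself, higher in HCT116 for 687 genes and lower for 1025. The largest differences toward HCT116 among genes detected in every group were 4.81 ± 0.51 for ANKRD1, 3.65 ± 0.20 for CCN2, 3.57 ± 0.21 for HOXC6, 3.53 ± 0.17 for TAGLN, 3.44 ± 0.36 for SNORA27 and 2.95 ± 0.37 for RNU4ATAC. Those toward BEAS-2B were -4.31 ± 0.24 for SOX4, -4.17 ± 0.20 for BCOR, -4.10 ± 0.20 for TRIB1, -3.64 ± 0.27 for KLF4, -3.49 ± 0.28 for HSPA7 and -3.43 ± 0.36 for SMAD7. In ANKRD1, HOXC6, SOX4, BCOR, KLF4 and SMAD7 the fitted effects of the lines had opposite signs, although that of SMAD7 in HCT116 did not pass the test. In BEAS-2B, CCN2 and TAGLN were near the highest level of any gene on every array of 6 h, which leaves little room for a rise there. TRIB1 was at 12.97 and 12.90 in untreated HCT116, which likewise limits a rise in that line. The lines also differ in dose. For HOXC6, TAGLN and BCOR, other probes of the gene gave values near 0 in HCT116.

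Probes with no gene symbol were outside the comparison of genes. Of 7095 such probes tested, 722 passed the test at 6 h of copper in HCT116 (10.2%), 471 higher and 251 lower, a smaller share than the 30.8% of named genes.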

How the results depend on the processing

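Leaving out each array in turn, 1389 to 1546 genes rose and 2042 to 2162 fell with copper at 6 h, 626 to 729 and 975 to 1058 past 2-fold. The line difference was higher for 462 to 542 and lower for 746 to 855, the change from 4 to 6 h for 14 to 26 and 23 to 61, that from 6 to 12 h for 361 to 529 and 679 to 952, and the untreated change for 0 to 1 and 0 to 2. With no background correction, and likewise with the authors' normalized values, 306 genes rose and 435 fell past 2-fold, 75 and 168 changed from 4 to 6 h, and 1 and 1 changed without copper. With an offset of 50 these counts were 417 and 631, 71 and 160, and 1 and 1. With arrays scaled to one median, 694 genes rose and 1874 fell, the median of all genes was -0.121, the line difference was called for 86 and 411 genes, the change from 4 to 6 h for 0 and 0, and that from 6 to 12 h for 59 and 141. The 4 to 6 h counts were 52 and 130 with the strict detection filter, 0 and 0 with the compared arrays alone, and 1 and 1 with HCT116 arrays alone, and the 6 to 12 h counts were 53 and 106, and 300 and 516, with these choices of arrays. With a replicate block, 1772 genes rose and 2669 fell at 6 h, and the change from 4 to 6 h was higher for 19 and lower for 55. The calls of BTC, LONP1 and, from 4 to 6 h, DOLK were lost, and no other named call changed. CNOT4 fell by 0.52 on the log2 scale with its brightest probe and had an effect of 0.20 (adjusted p = 0.347) with the mean of its probes. The 234 results recomputed were each a named gene in 1 contrast, so a gene can count more than once. Of their 3756 recomputed values, 3582 kept direction and call, 161 lost the call, 12 gained it and 1 changed sign. With median scaling came 56 of the losses. The causes were not tested. Having 2 arrays a group limits the precision, and genes undetected without copper can show only rises.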

Other observations

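Gene families formed by symbol, chosen after the values were seen, were also counted at 6 h of copper in HCT116. Small nucleolar and Cajal body RNAs, which guide the modification of ribosomal and spliceosomal RNA, rose more often than they fell: of 183 measured, 53 rose (29%) and 9 fell (4.92%), beside 12.4% and 18.5% of all genes, with a median effect of 0.23, or 0.19 with undetected members at their bound. Most are processed from introns of host genes. SNORA27 had levels of 5.67 and 5.11 untreated and 8.99 and 8.93 with copper and an effect of 3.57 ± 0.25, adjusted p = 5.43e-09, and SNORD14D, hosted in an intron of HSPA8, had levels of 6.28 and 6.51 untreated and 9.78 and 9.96 with copper and an effect of 3.47 ± 0.20, adjusted p = 2.97e-10. The copper levels of both were above their untreated levels on every array. SCARNA18 had an effect of 3.44 ± 0.24, and SCARNA9 was undetected with copper and at least 3.55-fold lower. In BEAS-2B 25 of the 183 rose and 16 fell, and the difference between the lines was higher in HCT116 for 36 and lower for 5. With arrays scaled to one median, 35 rose, and with all 8 untreated arrays as reference, 14 fell.

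Of 76 mitochondrial ribosomal protein genes, 37 fell and 0 rose, with a median effect of -0.42, and 21 fell with arrays scaled to one median. MRPS26 had levels of 10.73 and 10.44 untreated and 8.45 and 8.58 with copper and an effect of -2.07 ± 0.12, adjusted p = 5.59e-10. Of 34 genes of NADH dehydrogenase, the first complex of the respiratory chain, 13 fell and 0 rose, with 7 falling without copper array 1 or untreated array 1 and 3 with arrays scaled to one median. NDUFV3 had an effect of -1.74 ± 0.27 on its brightest probe and -0.35 on the other, and NDUFA6 one of -0.88 ± 0.14. Of 73 cytosolic ribosomal protein genes, 9 rose (12.3%, near the 12.4% of all genes) and 3 fell (4.11%, beside 18.5%), with effects between -0.45 and 0.96. Without untreated array 2, 5 of them rose, and without copper array 2, 1 fell. Mitochondrial carriers of the SLC25 family moved both ways, 4 rising and 10 falling of 38 (10.5% and 26.3%, beside 12.4% and 18.5% of all genes). SLC25A28, which imports iron into mitochondria, fell by 1.92 on the log2 scale, and SLC25A25, a carrier of ATP and magnesium, had an effect of 1.70 ± 0.10. Of the 4 rises, 2 held without copper array 1 or either untreated array.

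Of 54 histone genes, 6 rose (11.1%) and 4 fell (7.41%), beside 12.4% and 18.5% of all genes, and 36 were detected on any of the 4 arrays. H2AC18 and H2AC19, near-identical genes that the probes may not separate, had effects of 1.56 ± 0.17 and 1.54 ± 0.17. The number of falls was 2 without copper array 2 or untreated array 1 and 0 with arrays scaled to one median. Of 396 zinc finger genes named ZNF, 70 rose and 88 fell (17.7% and 22.2%), and 34 rose with arrays scaled to one median. ZNF143, which binds promoters and chromatin loop anchors, had levels of 8.26 and 8.13 untreated and 10.03 and 9.90 with copper and an effect of 1.77 ± 0.15, adjusted p = 4.05e-08. ZNF296 fell from 9.79 and 9.77 to 7.13 and 6.71 (-2.87 ± 0.23, adjusted p = 2.89e-08). Among 23 TBP-associated factor genes, subunits of the TFIID complex and its relatives, 5 rose and 5 fell (21.7% each, beside 12.4% and 18.5% of all genes). TAF7 and TAF13 had effects of 1.87 ± 0.14 and 1.45 ± 0.19, and TAF5 and TAF4 effects of -2.14 ± 0.12 and -1.44 ± 0.12.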
